A study of Mus musculus with 8 samples.

Results

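The corticosteroid receptor genes Nr3c1 (glucocorticoid receptor) and Nr3c2 (mineralocorticoid receptor) and 8 genes known to be induced by glucocorticoids, Fkbp5, Sgk1, Tsc22d3, Klf9, Pdk4, Zbtb16, Mt1 and Mt2, were followed in mouse prefrontal cortex. They were chosen by name, and all 10 were found among the 22609 gene symbols of the table. RNA came from the anterior cingulate part of the medial prefrontal cortex, both hemispheres, of B6.SJL mice aged 3 months. In the fear conditioning group, of 4 samples, mice spent 3 min in a chamber and then received 2 foot shocks of 0.8 mA, each lasting 2 s, with 30 s between them. They stayed 15 s longer, which ties the place to an aversive event (contextual fear conditioning). The context control group, also 4 samples, saw the chamber in the same way and was not shocked, so that exposure to the chamber was common to both groups. Tissue was taken 1 h after training in both groups. No home-cage animals were analysed here, so the response to the chamber itself was not measured.

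Corticosterone, the main glucocorticoid of the mouse, is released from the adrenal gland during stress and enters the brain. It binds the mineralocorticoid receptor with high affinity and the glucocorticoid receptor when its level is high. Both receptors wait in the cytosol in a complex with Hsp90 chaperones and immunophilins, move to the nucleus after binding hormone, and act on chromatin at glucocorticoid response elements. Prefrontal cortex expresses both, and the glucocorticoid receptor there is studied for its part in hormonal feedback and in emotional memory.

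Some of these genes carry response elements close to their starts, and 3 windows are printed: that of Sgk1 because it held the full element, and those of Mt1 and Mt2 because these neighbouring genes varied together and most widely across the samples. RefSeq promoter windows (GRCm38.p6, from 250 bases before to 50 after an annotated start, 300 bases) were at hand for 8 of the 10 members, 15 windows in all. Nr3c1 and Zbtb16 had no entry. The full palindromic element, AGAACA and TGTTCT with any 3 bases between them, was searched on both strands. It occurred in 1 window of the members, at 1 of the 6 annotated starts of Sgk1 (chr10:21993640-21993939, + strand), beginning 189 bases before the start. Among all 32851 mouse windows of the same length, 3 (0.00913%) held it. The sequence is shown 5′ to 3′ with that match in capitals.
Sgk1: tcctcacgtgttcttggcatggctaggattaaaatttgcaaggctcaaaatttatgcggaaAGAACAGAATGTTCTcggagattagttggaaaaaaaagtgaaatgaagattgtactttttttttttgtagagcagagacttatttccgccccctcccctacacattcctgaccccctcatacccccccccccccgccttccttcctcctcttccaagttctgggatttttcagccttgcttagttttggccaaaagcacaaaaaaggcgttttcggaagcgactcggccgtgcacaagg
The cores TGCGCNC and TGCACNC of the metal response element, which the zinc-sensing factor Mtf1 binds, were also searched on both strands. Mt1 (chr8:94178839-94179138, + strand) held 3 matches and Mt2 (chr8:94172368-94172667, + strand) held 4, in capitals in the 2 lines that follow. Of all windows, 25.7% held at least 1 match, 1.97% at least 3 and 0.517% at least 4.
Mt1: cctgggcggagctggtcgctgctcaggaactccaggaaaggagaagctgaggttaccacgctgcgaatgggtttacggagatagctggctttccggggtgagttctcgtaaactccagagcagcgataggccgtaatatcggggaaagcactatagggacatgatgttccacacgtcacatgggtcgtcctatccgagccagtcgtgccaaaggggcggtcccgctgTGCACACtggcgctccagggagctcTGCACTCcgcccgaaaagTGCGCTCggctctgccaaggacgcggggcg
Mt2: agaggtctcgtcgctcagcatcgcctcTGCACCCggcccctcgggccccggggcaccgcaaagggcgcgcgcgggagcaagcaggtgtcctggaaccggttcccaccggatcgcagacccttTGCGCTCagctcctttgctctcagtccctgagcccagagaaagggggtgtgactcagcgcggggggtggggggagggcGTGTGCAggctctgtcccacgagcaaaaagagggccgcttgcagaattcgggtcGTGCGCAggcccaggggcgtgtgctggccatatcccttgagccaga
A shorter pattern that includes the full one, GNACA and TGTNC with any 3 bases between them, matched Mt1 once (GGACATGATGTTC, 94 bases before the start) and Mt2 not at all. It occurred in 156 (0.475%) of all windows. None of the metal element matches overlapped it. A match describes letters in this window and does not show that a factor binds there, and the gene-level values do not separate transcripts by their starts.

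Each value given here is the number of reads on a gene divided by a factor for its sample, as the authors deposited it, and is called a scaled read value. Dividing by the smallest step of each column gave 1992452 to 3565356 gene reads per sample. The groups were not separated by depth (difference in mean of -124300 reads, exact two-sided permutation p = 0.857 over 70 assignments). The libraries differed in base composition. The GC tilt, the mean log2 deviation of the genes richest in GC (at least 54.9% of bases) minus that of the poorest (at most 43.6%), lay between 0.287 and 0.741 in replicates 1 and 2 of both groups and between -1.04 and -0.214 in replicates 3 and 4 of both groups. The labels name no batch. Excitatory cortical markers were abundant, with Camk2a at 5233 ± 734 in context controls and 5327 ± 1218 after conditioning and Slc17a7, the cortical vesicular glutamate transporter, at 2341 ± 540 and 2575 ± 725 (SD, n = 4).

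None of the 10 members passed the threshold between fear conditioning and context control, 1 h after training. Of them, 6 lay higher and 4 lower after conditioning, with a median log2 change of 0.10, against 0.0095 over all 14704 tested genes. The test was limma on log2(value + 1), two-sided, with Benjamini-Hochberg adjustment over all tested genes and a threshold of 0.05. All 10 members passed the filter on low values. Each member had an adjusted p of 0.9998 in limma. Over all genes, 0 (0%) passed, 397 (2.7%) had an unadjusted p under 0.05, of which 173 (1.18%) were higher and 224 (1.52%) lower. Among the members 0 had an unadjusted p under 0.05 in limma. The count tests gave 0 calls as well (edgeR, 385 genes at an unadjusted p under 0.05, and DESeq2, 340). The 2 groups overlapped in every member, where 282 genes (1.92%) of all tested did not, 0.979% higher and 0.939% lower after conditioning. The samples are called biological replicates in the design text, which does not say how many mice make up a sample, and the p-values measure only the spread between these samples.

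**Figure D1:**
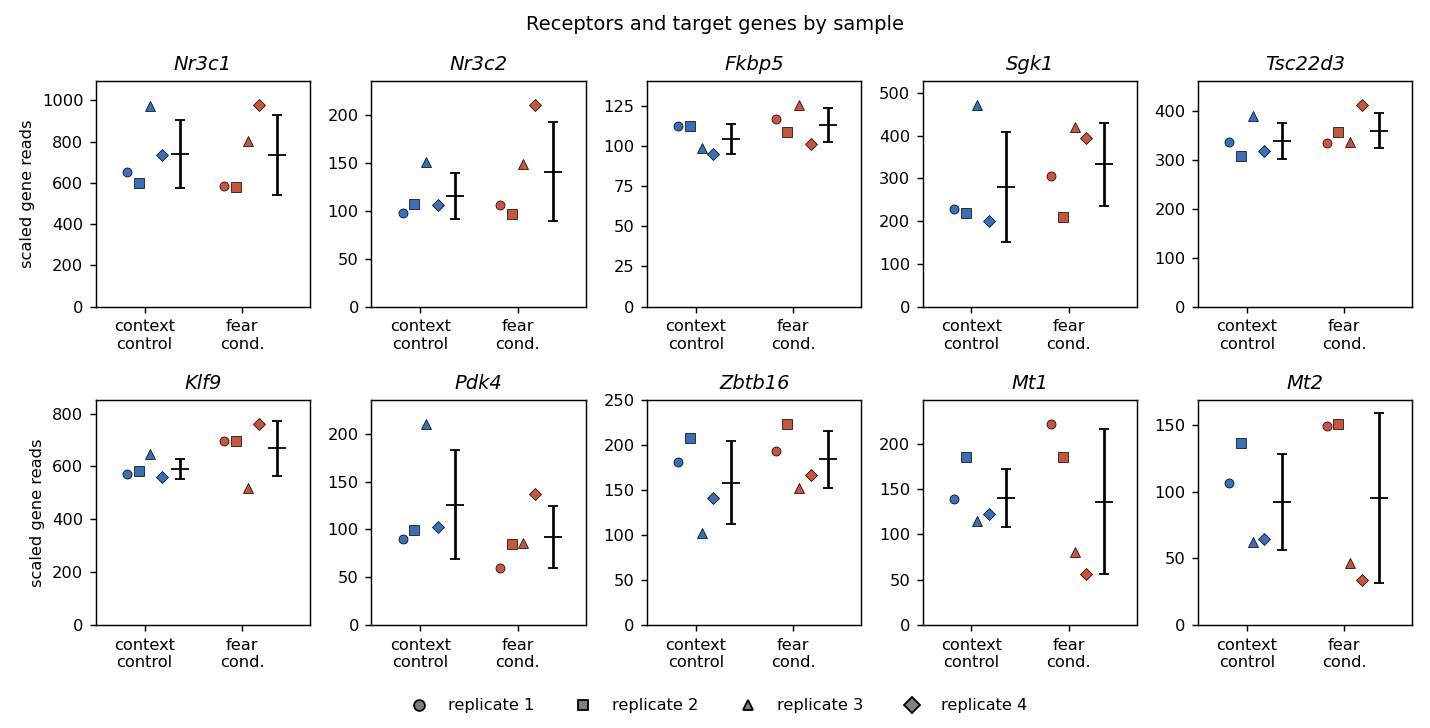
Scaled read value (y axis, from 0) of each of the 10 genes in context control (blue) and fear conditioning (red) samples, with the replicate number as the symbol and the mean ± SD of 4 samples as the bar beside the points. The groups overlap in every panel, and in Mt1 and Mt2 the circles and squares lie above the triangles and diamonds in both groups.

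Both receptors were expressed in every sample, and neither shifted beyond the spread between samples. Nr3c1, a ligand-activated transcription factor, read 654, 598, 971 and 737 in the context controls and 583, 578, 802 and 977 in the conditioned samples, here and later in the order of replicates 1 to 4. In both groups replicates 3 and 4 were the high ones, and the highest control and the highest conditioned sample were nearly equal. The mean was 740.1 ± 164 (SD, n = 4) in the controls and 735 ± 192 after conditioning, a log2 change of -0.02 with a 95% interval from -0.46 to 0.42 (limma). This interval covers changes between 0.726 and 1.34 times the control level, so shifts of receptor mRNA within it are compatible with these values. It is not adjusted for the number of genes tested and is no limit of detection. The log2 change was between -0.17 (without fear conditioning replicate 4) and 0.12 (without context control replicate 3) when each sample was left out.

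Nr3c2, which binds the same hormone with higher affinity, read 97.2, 107, 151 and 106 in context controls and 106, 96.8, 149 and 210.1 after conditioning. Control replicate 3 and conditioned replicates 3 and 4 were high, and the other 5 samples lay within 96.8 to 107. The mean was 116 ± 24.3 (SD, n = 4) in the controls and 141 ± 51.6 after conditioning. The log2 change was 0.23 (95% interval -0.33 to 0.79, limma). It was 0.02 without fear conditioning replicate 4 and 0.39 without fear conditioning replicate 2. The ratio of Nr3c2 to Nr3c1, often used as a measure of receptor balance, was 0.148, 0.18, 0.156 and 0.144 in context controls and 0.182, 0.167, 0.186 and 0.215 after conditioning. The ranges overlapped, with 3 of the 4 conditioned samples above every control, and this derived ratio was not tested. It was taken from the values as deposited, and the 2 genes differ in GC content (47.5% for Nr3c2 and 42.2% for Nr3c1). The ratio and this count were not corrected for the base composition of the libraries.

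Fkbp5 encodes an immunophilin that joins the receptor complex and lowers its affinity for hormone, and it is a widely used marker of receptor activity. It read 113, 113, 98.8 and 94.95 in context controls and 117, 109, 126 and 102 after conditioning. Of all the members it varied least, from its lowest to its highest sample by 1.32-fold. Conditioned replicates 1 and 3 were above every control and the other two lay among them. The mean was 105 ± 9.37 (SD, n = 4) in the controls and 113 ± 10.4 after conditioning, a log2 change of 0.11 (95% interval -0.28 to 0.50, limma). It was 0.06 without fear conditioning replicate 3 and 0.16 without replicate 4 of that group. The gene rested on 59 to 136 reads per sample.

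Tsc22d3, which encodes the anti-inflammatory leucine zipper protein GILZ, lay between 308 and 390.2 in context controls and between 336 and 413 after conditioning. Its log2 change was 0.09 (95% interval -0.23 to 0.41, limma), with 0.02 when fear conditioning replicate 4 was left out and 0.16 when context control replicate 3 was. Klf9, a Krüppel-like factor that also responds to thyroid hormone, read 571, 584, 646 and 562 in context controls and 696, 695, 519 and 761.8 after conditioning. Conditioned replicates 1, 2 and 4 were above every control, and replicate 3 was below every control. The log2 change was 0.16 (95% interval -0.16 to 0.49, limma), and it was 0.28 without fear conditioning replicate 3 and 0.10 without fear conditioning replicate 4.

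Zbtb16, a zinc finger transcription factor also called PLZF, read 182, 208, 103 and 142 in context controls and 193, 224, 153 and 167 after conditioning. Replicates 1 and 2 of each group were above all samples numbered 3 and 4. Its mean was 159 ± 46.2 (SD, n = 4) in the controls and 184 ± 31.4 after conditioning. The log2 change was 0.25 (95% interval -0.25 to 0.75, limma), and it was 0.06 without context control replicate 3 and 0.40 without context control replicate 2.

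Sgk1 and Pdk4 each had 1 high sample among the controls, and it was the same sample. Sgk1, a kinase that regulates ion channels and transporters, read 228, 218, 471 and 199.6 in context controls and 305, 208, 421 and 395 after conditioning. Context control replicate 3 was the highest of all 8 samples, and 3 of the 4 conditioned samples were above the other 3 controls. The mean was 279 ± 129 (SD, n = 4) in the controls and 332 ± 96.5 after conditioning, a log2 change of 0.29 (95% interval -0.33 to 0.92, limma). Leaving out single samples moved it both ways: it was 0.58 without context control replicate 3 (adjusted p = 1 in limma), 0.16 without fear conditioning replicate 3 and 0.17 without context control replicate 4.

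Pdk4 encodes a kinase that inhibits pyruvate dehydrogenase and so spares glucose. It read 90.5, 99.4, 211 and 103 in context controls and 59.4, 84.9, 86.1 and 137 after conditioning. Conditioned replicates 1, 2 and 3 were below every control, and replicate 4 lay between the high control and the others. The mean was 126 ± 56.8 (SD, n = 4) in the controls and 91.9 ± 32.6 after conditioning. The log2 change of -0.42 (95% interval -1.10 to 0.25, limma) was the largest of the members in size, and it was -0.15 without context control replicate 3, -0.24 without fear conditioning replicate 1 and -0.64 without fear conditioning replicate 4.

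Context control replicate 3 was also the highest of the 8 samples in the summed markers of all 6 non-neuronal lists. Its sums were 23231 for astrocytes (16849 to 21344 in the other controls), 2110 for endothelial and mural cells (1643 to 1848), 2267 for microglia (1879 to 2231), 599.97 for choroid plexus and meninges (214 to 391) and 71.6 for blood (21.5 to 61.2). The gap was widest for oligodendrocytes, the cells that make myelin. The summed value of 12 oligodendrocyte markers was 11842 in that sample, 2760 to 5211 in the other controls and 2958 to 5048 in the conditioned samples. All 12 markers were detected, and all 12 lay lower on average after conditioning, with context control replicate 3 included in the control averages. Apart from that sample, the sums of the 2 groups covered much the same range. The other high Sgk1 values, in conditioned replicates 3 and 4, came with oligodendrocyte sums of 5048 and 5021, close to the 5211 and 5073 of context control replicates 1 and 2. In bulk tissue, fewer cells of a type and less RNA per cell cannot be told apart. The part of oligodendrocyte or other non-neuronal RNA in the Sgk1 and Pdk4 values was not tested.

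**Figure D2:**
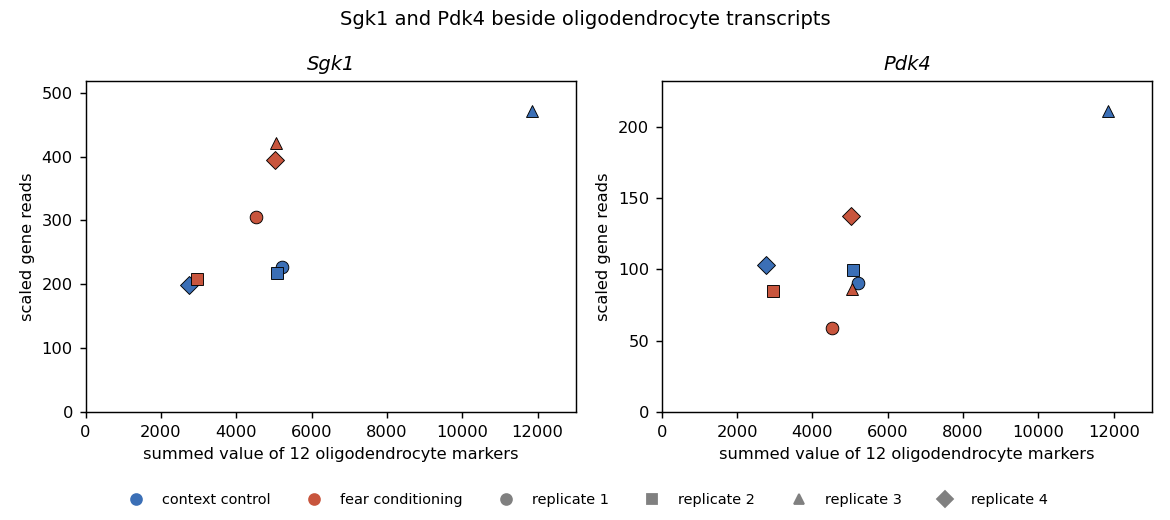
Scaled read value of Sgk1 (left) and Pdk4 (right) on the y axis against the summed scaled read value of 12 oligodendrocyte markers on the x axis, 1 point per sample, context control in blue and fear conditioning in red, with the replicate number as the symbol. Context control replicate 3 is at the top right of both plots, at 11842 on the x axis.

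The metallothioneins Mt1 and Mt2 bind zinc and copper, and glucocorticoids and metals both induce them. They had the widest spread of the members. The direction of their change after conditioning differed between replicates 1 and 2 and replicates 3 and 4. Mt1 read 139, 185, 115 and 122 in context controls and 222, 186, 80.6 and 56.6 after conditioning. Mt2 read 106, 137, 62.5 and 64.4 in context controls and 149, 151, 46.5 and 33.6 after conditioning. In both genes replicates 1 and 2 were high and replicates 3 and 4 low in both groups, and the conditioned samples lay outside the controls at both ends: the highest and the lowest values of all 8 samples were from the conditioned group.

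Mt1 averaged 140.3 ± 31.6 in context controls and 136 ± 80.2 after conditioning, and Mt2 averaged 92.5 ± 35.9 and 95.1 ± 63.8 (SD, n = 4). The log2 changes were -0.23 (95% interval -1.05 to 0.59) and -0.18 (95% interval -1.19 to 0.84) in limma. Without fear conditioning replicate 4 they were 0.11 for Mt1 and 0.21 for Mt2. For Mt2 the mean was slightly higher after conditioning while the log2 change was below 0. Mt2 rested on 34 to 128 reads per sample and Mt1 on 59 to 167. Within replicates 1 and 2 the log2 change was 0.34 for Mt1 and 0.31 for Mt2, and within replicates 3 and 4 it was -0.80 and -0.67. The 2 genes lie side by side and are similar in sequence, and how reads that match both were counted is not given in the sources used here.

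**Figure D3:**
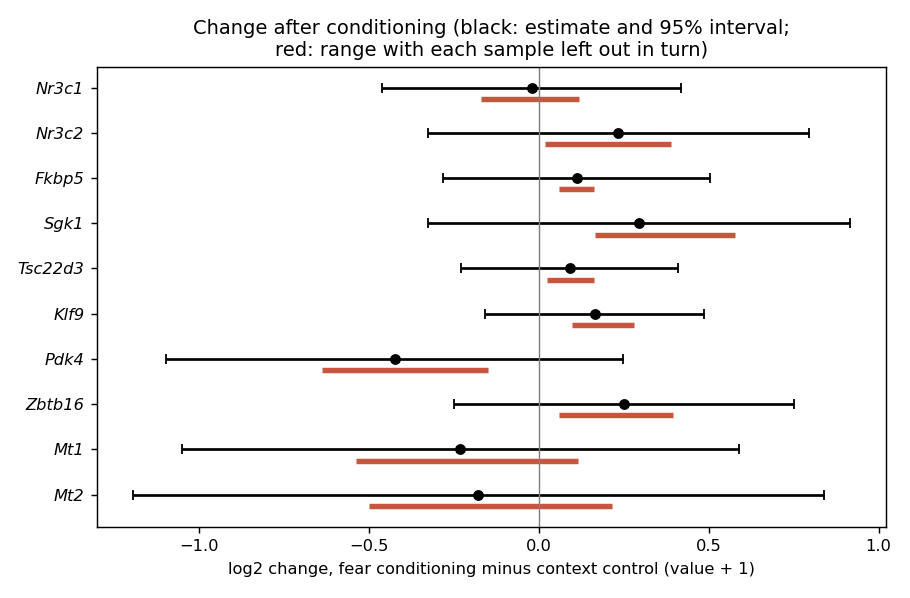
Log2 change of each gene, fear conditioning minus context control, on the log2(value + 1) scale, with its 95% interval from limma in black and, in red, the range of the estimate when each of the 8 samples was left out in turn. Every black interval crosses 0, from -0.46 to 0.42 in Nr3c1 and from -1.19 to 0.84 in Mt2.

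Across the 8 samples the receptors and the metallothioneins moved in opposite directions. Over the 45 pairs of members, 6 correlations passed at an adjusted p under 0.05 (Pearson, exact permutation of pairings, two-sided, Benjamini-Hochberg over the 45), and they were all the pairs among Nr3c1, Nr3c2, Mt1 and Mt2. Mt1 and Mt2 had r = 0.97 (exact p = 0.000124, adjusted p = 0.00558) and rho = 0.98 (exact p = 0.000397, adjusted p = 0.00893) over the 8 samples. Without the 2 samples farthest from the median of Mt1, r was 0.96. Nr3c1 and Nr3c2 had r = 0.88 (exact p = 0.00392, adjusted p = 0.0426) and rho = 0.81 (exact p = 0.0218, adjusted p = 0.18), with r = 0.73 without the 2 samples farthest from the median of Nr3c1. Nr3c1 and Mt2 had r = -0.92 (exact p = 0.00275, adjusted p = 0.0426) and rho = -0.98 (exact p = 0.000397, adjusted p = 0.00893), and r = -0.998 without the same 2 samples. Each of the other 3 pairs, Nr3c1 with Mt1 and Nr3c2 with either metallothionein, had r = -0.87. Of these, Nr3c1 with Mt1 also passed by rho (-0.95, exact p = 0.00114, adjusted p = 0.0171).

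The GC tilt of the libraries moved with these genes. Nr3c1, whose longest annotated transcript has 42.2% GC, was lower in every sample numbered 1 or 2 than in every sample numbered 3 or 4, and Zbtb16 (53.6% GC), Mt1 (52.9%) and Mt2 (55.6%) were higher. That is 4 of 10 members without overlap between these sets of samples, 3 above and 1 below, where 26% of all tested genes did not overlap (14.5% above and 11.5% below). After a correction of each library for gene GC content, the SD of log2 values over the 8 samples went from 0.31 to 0.12 in Nr3c1 and from 0.82 to 0.54 in Mt2. It went from 0.66 to 0.54 in Mt1 and from 0.40 to 0.31 in Nr3c2. With corrected values 1 of the 45 pairs passed, Mt1 with Mt2 (r = 0.96, exact p = 4.96e-05, adjusted p = 0.00223). Nr3c1 with Mt2 had r = -0.58 (exact p = 0.124, adjusted p = 0.541), and Nr3c1 with Mt1 had r = -0.54 (exact p = 0.168, adjusted p = 0.583). The Nr3c2 pairs weakened less, to r = -0.77 with Mt1 (exact p = 0.025, adjusted p = 0.238) and -0.74 with Mt2 (exact p = 0.0318, adjusted p = 0.238). Nr3c1 with Nr3c2 had r = 0.66 (exact p = 0.0729, adjusted p = 0.41). The corrected log2 changes after conditioning were -0.04 for Nr3c1, 0.21 for Nr3c2, -0.26 for Mt1 and -0.21 for Mt2. On corrected log2 values Zbtb16 overlapped between replicates 1 and 2 and replicates 3 and 4, while Nr3c1, Mt1 and Mt2 still did not. Replicates 1 and 2 were at least 7.06 against at most 7.03 in Mt1, and at least 6.60 against at most 6.31 in Mt2. In Nr3c1 they were at most 9.46 against at least 9.47. Before and after correction, the correlations over 8 samples therefore span 2 sets that differ in GC tilt. Each set numbers 4 samples, too few for a correlation of its own.

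**Figure D4:**
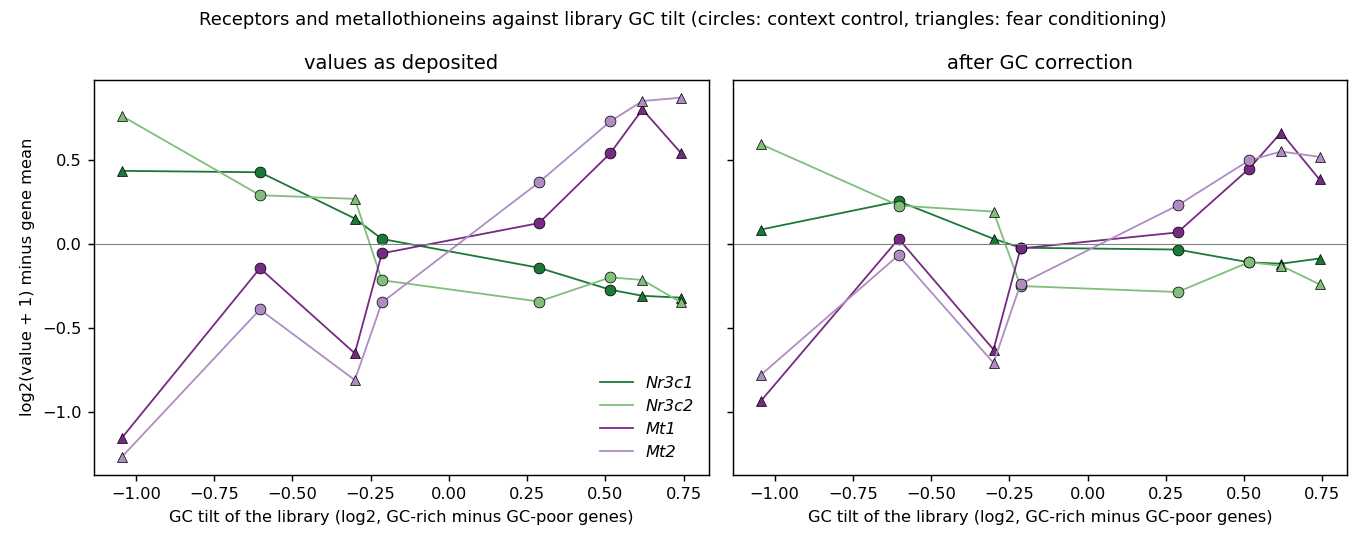
Log2(value + 1) of Nr3c1, Nr3c2, Mt1 and Mt2 minus each gene's mean over the 8 samples (y axis) against the GC tilt of the library (x axis, log2), as deposited on the left and after GC correction on the right, with circles for context control and triangles for fear conditioning. On the left the receptor lines fall and the metallothionein lines rise from a tilt of -1.04 to 0.741. On the right the Nr3c1 line is flatter, with a range of 0.372 against 0.755 on the left, and Mt1 and Mt2 still run together. There Nr3c1 is still lower, and Mt1 and Mt2 still higher, in the libraries with a positive tilt than in those with a negative one.

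The ratio of Mt1 to Mt2 within a sample was 1.30, 1.35, 1.84 and 1.90 in context controls and 1.49, 1.23, 1.74 and 1.69 after conditioning. It was therefore higher in replicates 3 and 4 than in replicates 1 and 2 of both groups, with overlapping ranges between the groups. No test was made of this ratio. It was taken from the values as deposited, and the 2 genes differ in GC content (52.9% for Mt1 and 55.6% for Mt2). On GC-corrected log2 values the order of the sets held in the controls but not after conditioning. There Mt1 and Mt2 lay further apart in replicate 1 (7.66 and 6.92) than in replicate 4 (6.06 and 5.59).

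To compare levels between genes, each scaled read value was divided by the length of the gene's principal transcript in the GENCODE vM21 annotation, and levels per kilobase fell into 2 tiers. The upper tier, by mean over the 8 samples, was Mt1 (252), Mt2 (184), Tsc22d3 (177), Klf9 (140.3), Sgk1 (124) and Nr3c1 (115). Each of these overlapped its neighbours in that order, with Mt1 ranging from 103 to 405 and Nr3c1 from 89.9 to 152. The lower tier was Zbtb16 (33.5), Pdk4 (31.3), Fkbp5 (28.3) and Nr3c2 (21.6), whose ranges also overlapped. The lowest value of the upper tier (65.7, Mt2) was just above the highest of the lower tier (60.5, Pdk4). Per kilobase, the ratio of Nr3c2 to Nr3c1 lay between 0.157 and 0.234.

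Beyond the members, other glucocorticoid-inducible genes showed no call. Of 28 listed, 26 were tested, 0 passed in either direction, and 7 lay higher and 19 lower with a median log2 change of -0.07. The 2 with the smallest p were Tgm2, encoding tissue transglutaminase, and Gjb6, encoding the astrocyte connexin Cx30. Tgm2 was 74.3 ± 14.3 in context controls and 43.7 ± 17.5 after conditioning, and Gjb6 was 315 ± 52.7 and 232 ± 34.1 (SD, n = 4). For Gjb6 the summed value of 12 astrocyte markers lay between 16849 and 23231 in context controls and between 17006 and 18747 after conditioning, and all 12 were lower on average. How much of the Gjb6 difference goes with astrocyte RNA was not tested.

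The proteins that hold and serve the receptors were also without a call. Of 14 chaperones and cochaperones of the receptor complex, 7 lay higher and 7 lower (median -0.0098) and 0 passed. Hspa8, a constitutive Hsp70, was 79.4 ± 15.1 in context controls and 119 ± 55.3 after conditioning, and Ptges3, the Hsp90 cochaperone p23, was 494 ± 67.6 and 425 ± 69.0 (SD, n = 4). Hspa8 has near-identical copies elsewhere in the genome, so its count is uncertain. Of 14 coactivators and corepressors, 13 lay higher and 1 lower, with a median of 0.10 and 0 past the threshold. The acetyltransferase gene Crebbp was 101 ± 33.95 and 142 ± 26.9, and Ncoa2, a steroid receptor coactivator, was 445 ± 66.9 and 539.9 ± 61.3.

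Genes that set the local hormone level lay lower, though 0 of them passed. Of 7 listed, 6 were tested and all 6 were lower, with a median log2 change of -0.47. H6pd, whose product supplies NADPH to the enzyme that regenerates corticosterone, was 26.8 ± 6.38 (SD, n = 4) in the controls and 15.9 ± 7.26 after conditioning. That enzyme's own gene, Hsd11b1, named after its values were seen, was 108 ± 27.7 and 74.9 ± 30.5. Abcb1b, one of the genes for the P-glycoprotein efflux pump of the blood-brain barrier, was near the floor at 10.4 ± 2.84 and 4.29 ± 2.33. Abcb1a, another gene for this pump and also named after its values were seen, was far more abundant. It was at 184 ± 55.9 and 142 ± 50.1, with overlapping groups. Hsd11b2, which inactivates the hormone in kidney and was the 1 gene of the list not tested, had no read in any sample, and 3 reads in a library, the limit that a count of 0 allows, correspond to a value of 2.49 to 4.83. The summed value of 12 endothelial and mural markers lay between 1643 and 2110 in context controls and between 1252 and 1835 after conditioning, with all 12 lower on average, and its part in these values was not tested.

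Genes of the stress peptides and their receptors showed no call. Of 10 listed CRH, urocortin and vasopressin genes, 5 had a mean value high enough to be tested, 3 higher and 2 lower, and 0 passed. Crhr2, a receptor for urocortins, was at 1.03 ± 1.24 (SD, n = 4) in the controls and 4.12 ± 1.09 after conditioning, with every conditioned sample above every control. In reads these are 3, 0, 0 and 1 in context controls and 4, 3, 3 and 3 after conditioning, so context control replicate 1 tied with 3 conditioned samples before scaling. Of all tested genes, 0.979% lay higher without overlap in scaled values. Crhbp, the binding protein, was 182 ± 22.1 and 162 ± 19.5.

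**Figure D5:**
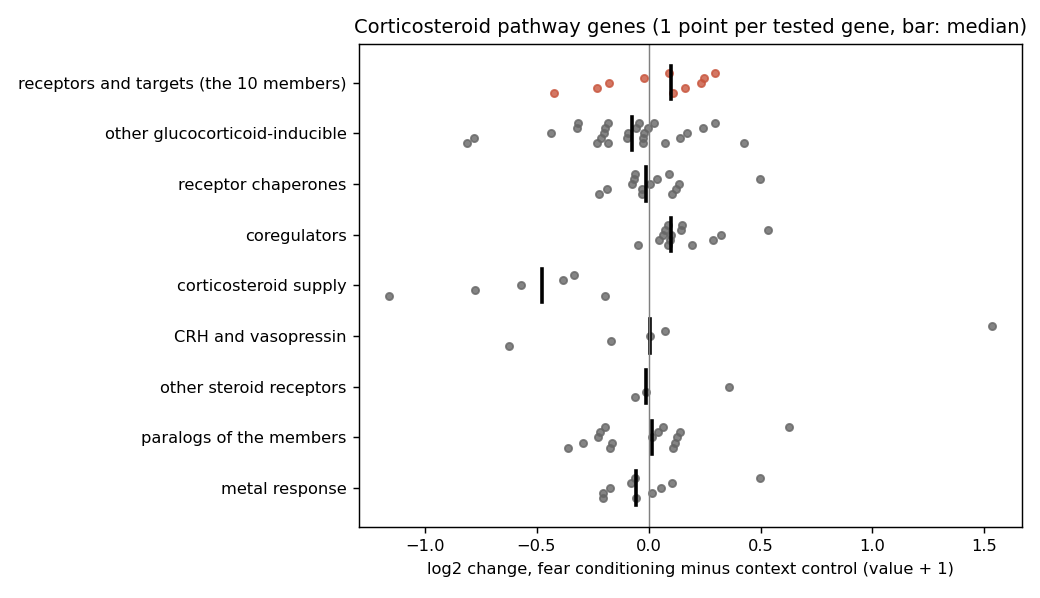
Log2 change after conditioning, on the log2(value + 1) scale, of each tested gene in 9 lists, with 1 point per gene and a black bar at the list's median. The 10 receptor and target genes (red) lie between -0.42 and 0.29, and the corticosteroid supply list has all 6 points below 0.

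Paralogs of the members did not pass either, with 15 of 16 tested, 8 higher and 7 lower, and a median log2 change of 0.01. The kinases Sgk3 (72.2 ± 14.6 in context controls, 63.9 ± 21.7 after conditioning) and Sgk2 (3.19 ± 2.92 and 3.15 ± 3.66) overlapped between groups. The pyruvate dehydrogenase kinases Pdk1 (349 ± 24.6 and 390.9 ± 102), Pdk2 (366 ± 70.4 and 388 ± 140) and Pdk3 (175 ± 38.3 and 157 ± 55.6) also overlapped. So did the Tsc22 family genes Tsc22d1 (1269 ± 218 and 1316 ± 48.3), Tsc22d2 (223 ± 26.5 and 235 ± 64.3) and Tsc22d4 (76.7 ± 29.3 and 66.1 ± 41.7). The Krüppel-like factor genes were at 48.6 ± 17.8 and 43.5 ± 19.9 for Klf4, 878 ± 65.6 and 948 ± 90.1 for Klf13, 46.0 ± 12.2 and 40.7 ± 8.57 for Klf15 and 214 ± 30.2 and 237 ± 38.4 for Klf16. Zbtb7a was at 308 ± 69.1 and 332 ± 63.8 and Zbtb20 at 3.65 ± 3.32 and 5.10 ± 3.23 (SD, n = 4 throughout).

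Mt3, the metallothionein enriched in brain, followed the same samples as Mt1 and Mt2. It was 206, 259, 91.8 and 146 in context controls and 278, 293, 101 and 46.1 after conditioning, high in replicates 1 and 2 and low in replicates 3 and 4. Of all tested genes, 14.5% lay above in this way without overlap. Mt3 has 62.3% GC, and these values were not corrected for the base composition of the libraries. The log2 change of Mt3 was -0.23 (limma). Mt4 had no read. Among 10 genes of metal sensing and transport, 4 lay higher and 6 lower, with a median of -0.06 and 0 past the threshold. Hmox1, encoding haem oxygenase, was 17.6 ± 6.41 and 25.03 ± 8.04, and the manganese transporter gene Slc30a10 was 142 ± 24.7 and 128 ± 33.5 (SD, n = 4).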

How the data were processed

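The deposited table holds 1 value per gene and sample for 22609 symbols. Per the submitters' processing notes, TopHat and HTSeq were used. The notes name hg19, a human build, for these mouse samples, and the annotation, tool versions and strand setting behind the counts are not given in those sources. The deposited values are a signal, read counts divided by a factor per sample: within each column they are whole multiples of 1 step (0.831 to 1.61) for 100% of values, within 0.01 read, which gave 1992452 to 3565356 reads per sample. In the authors' file 25 symbols had turned into dates and were kept as they stand.

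The 14704 genes averaging 1 or more were tested with limma 3.58.1 in R 4.3.3 on log2(value + 1), all 8 samples, variance trend, Benjamini-Hochberg adjustment and a threshold of 0.05. A fold change on this scale understates that of low genes. As alternatives, the recovered reads were tested in edgeR 4.0.16 and in DESeq2 1.42.0. The fits were tested on simulated counts with 200 changed genes. The simulation held no GC tilt and no difference between sets of replicates, so it does not cover that spread. GC correction subtracted a lowess curve (span 0.3) on the GC content of the longest GENCODE vM21 transcript, fitted over genes whose log2 values averaged more than 5. This correction was added after seeing the data.

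Members, lists and tests were chosen with earlier results of these data known. Named genes are the members, their paralogs, the 2 genes of each list with the smallest p where none passed, the 2 most abundant markers of each cell type, and for each member the gene most correlated with it. Promoters are from RefSeq (GRCm38.p6). Intervals are limma's 95% intervals.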

Additional observations from a re-analysis of the deposited data

Results flagged for a closer look

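Among 134 sets of 4 samples (67 named genes in each of the 2 groups), 5 held 1 sample far from the other 3, judged by its gap relative to the range of the set. Chance gives such a sample in about 1 of 20 sets. The members had 2 of the 5. Sgk1 was 470.9 in context control replicate 3 against 199.6 to 228 in the other controls, and Pdk4 was 210.7 in the same sample against 90.5 to 103.0. The oligodendrocyte marker sum was 11842 in that sample and no higher than 5211 in any other sample, and this control was the highest sample in the other 5 non-neuronal marker sums too. Their part in these values was not tested.

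Hspa8 was 201.5 in fear conditioning replicate 4 against 87.5 to 93.9 in the other conditioned samples. In that sample Slc30a10 was 177.5 against 106 to 115. Klf4 was 72.95 in fear conditioning replicate 2 against 30.1 to 37.3.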

How the results depend on the processing

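No member was called in any of 22 other settings, 18 of them planned. Genes called over the whole table numbered 0, except 2 with replicates 1 and 2 of each group only and 0 to 1 when each sample was left out in turn. The 1 was Uevld (log2 change -2.79, adjusted p = 0.00646 in limma) without fear conditioning replicate 4. The direction of Nr3c1 turned to 0.065 with replicates 3 and 4 only, and its range with each sample left out was -0.17 to 0.12. Nr3c2 turned to -0.0099 with replicates 1 and 2 only (0.02 to 0.39 with each sample left out). Mt1 turned to 0.089 with array weights and 0.34 with replicates 1 and 2 only, and lay between -0.54 and 0.11 with each sample left out. Mt2 turned to 0.027 in DESeq2, 0.072 with array weights, 0.014 in edgeR and 0.31 with replicates 1 and 2 only, and lay between -0.50 and 0.21 with each sample left out. The other 6 members kept their direction in all settings, with ranges when each sample was left out of 0.06 to 0.16 (Fkbp5), 0.16 to 0.58 (Sgk1), 0.02 to 0.16 (Tsc22d3), 0.10 to 0.28 (Klf9), -0.64 to -0.15 (Pdk4) and 0.06 to 0.40 (Zbtb16). Of these 6, Fkbp5 came nearest to no change, at 0.0014 with replicates 1 and 2 only. The number of correlated pairs was 6 by Pearson's r, 3 by Spearman's rho, 9 on deviations from the group means and 1 with GC-corrected values. The difference in reads lay between -372990 and 151312 with each sample left out, and turned without context control replicate 1. The cause of these turns was not tested.

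With the replicate number as a block, 0 genes were called (594 with an unadjusted p under 0.05, against 397 without it). Samples sharing a number correlated in their deviations at 0.228, 0.249, 0.0691 and 0.113, below 0.1 in 1 of 4, so the numbers were not taken as pairs. Samples with different numbers ranged from -0.385 (control replicate 2, conditioned replicate 4) to 0.478 (control replicate 3, conditioned replicate 4). Control replicate 1 with conditioned replicate 2 gave 0.234, and control replicate 2 with conditioned replicate 1 gave 0.274. Of 1250 values of the 57 other named genes, 22 moved by 1 SD or more. With 4 samples a group and 43 to 209 reads for Pdk4 and 34 to 128 for Mt2, the intervals were wide. Changes inside them are compatible with the data, and changes outside them could also miss the adjusted threshold.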

Other observations

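Of the other steroid receptors, Esr1 was 15.4 ± 9.33 in context controls and 19.3 ± 7.90 after conditioning, and Pgr was 214 ± 39.8 and 206 ± 46.6 (SD, n = 4). Of 4 listed, 3 were tested and 0 passed in limma, with 0 at an unadjusted p under 0.05 and 0 called over all genes by edgeR and DESeq2.

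The gene with the most similar pattern to each member, among 6218 candidates with a mean value of at least 100, was found by Pearson's r over the 8 samples as a description. It was Dnajb4, encoding an Hsp40 cochaperone, for Nr3c1 (r = 0.99) and Polr3k, a subunit of RNA polymerase III, for Nr3c2 (r = 0.99). For the metallothioneins it was Ckb, the brain creatine kinase, for Mt1 (r = 0.99) and the potassium channel gene Kcnh3 for Mt2 (r = 0.99). The GC content was 42.0% and 40.9% for Dnajb4 and Polr3k, and 61.7% and 61.2% for Ckb and Kcnh3, and these samples share the GC tilt described for the libraries. For Fkbp5 it was Sec24c (r = 0.99), for Sgk1 Trip4 (r = 0.96), for Tsc22d3 the transcription factor gene Yy1 (r = 0.97), for Klf9 Amotl1 (r = 0.94), for Pdk4 Sypl (r = 0.97) and for Zbtb16 Agfg2 (r = 0.98).

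Neuronal and non-neuronal marker lists stood as follows, with no marker past the threshold. Of 10 excitatory neuron markers 8 lay higher and 2 lower, and of 8 inhibitory markers 4 lay higher and 4 lower. Of 10 microglial markers 9 lay lower, and all 8 tested choroid plexus and meningeal markers and all 4 tested blood markers lay lower. The blood sum was between 21.5 and 71.6 in context controls and between 10.9 and 31.8 after conditioning.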
